A study of Mus musculus with 8 samples.

Results

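The data described here compare newly made RNA in mouse embryonic stem cells that carried a mutated CTCF with that in control cells, both after removal of their own CTCF. They comprise 4 of the 8 libraries of the series. These are 2 libraries of a line that overexpressed mutated CTCF and 2 of a control line, all from cells given the auxin IAA for 12 h, and they were chosen by their labels. The cells were of the E14 line with CTCF fused to an auxin-inducible degron (AID) in every group, the controls included. The other 4 libraries, used here only for reference, were 2 of the control line without IAA and 2 of a line that overexpressed wild-type CTCF and also received IAA for 12 h. All cells grew without serum in a medium with leukemia inhibitory factor, 1 µM of the MEK inhibitor PD0325901 and 3 µM of the GSK3 inhibitor CHIR99021. RNA was labelled for 15 min with 400 µM 4-thiouridine and the labelled part was captured and sequenced (TT-seq). The labels do not name the mutation, do not give the promoter of the transgenes and do not say whether a line was 1 clone. They also do not say whether replicates were separate cultures, so each p-value measures only the spread between these libraries, which may be technical.

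CTCF is a zinc-finger protein that binds DNA at a defined motif, halts the extrusion of chromatin loops by the cohesin ring and so marks the borders of contact domains. It also binds at many promoters. The degron tag lets IAA recruit a ubiquitin ligase to the tagged protein, which the proteasome then degrades, while a transgene product without the tag would be spared. TT-seq reads out transcription during the pulse rather than RNA that has accumulated, which matters for histone and other short or unstable transcripts.

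Depth was 15671114 and 17187354 recovered reads for the control with IAA, and 18247323 and 19566201 for mutated CTCF. Values are normalized reads, that is whole reads divided by 1 factor per library, with 1 read worth 0.836 to 1.19. They are not per length, so levels of different genes are not compared with each other. The stem cell identity of the label was borne out by its markers, since 8 of 8 pluripotent markers were in the table. Their summed level was 53116 to 54442 in the control with IAA and 57431 to 60165 with mutated CTCF. Of the markers of other cell types, the table listed 3 of 14 for neuroectoderm, 6 of 15 for mesoderm and definitive endoderm, 8 of 14 for primitive endoderm, 6 of 12 for trophoblast and 2 of 12 for fibroblasts. Defining genes such as Sox1, Foxa2, Sox17, Cdx2 and Col1a1 were not among the listed genes. In bulk RNA, fewer cells of a type and less RNA per cell cannot be told apart.

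Mutated CTCF was accompanied by many small changes and a smaller set of large ones, and the large ones were more often decreases. Of 15818 tested genes, 5433 (34.3%) differed between mutated CTCF and control at a Benjamini-Hochberg adjusted p under 0.05 in a limma fit on log2(value + 1). Of these, 3473 were higher (22% of tested genes) and 1960 lower (12.4%). A change of less than 0.5 on the log2 scale was the case for 3952 of them, 2858 higher and 1094 lower. At 2-fold or more there were 425 genes (2.69%), 144 higher (0.91%) and 281 lower (1.78%). That count was 158 with a minimum mean of 50, 181 with a pseudocount of 10 and 235 under DESeq2. The libraries of both groups did not overlap for 10304 genes (65.1%). The split between higher and lower calls rested on the library scale. After median-of-ratios rescaling, which moved the median log2 fold change of all genes from 0.0551 to 0.00424, 2706 genes were higher and 2682 lower (50.2% higher, against 63.9% on the deposited scale). After rescaling to the same total, 3118 were higher and 2478 lower. The excess of decreases among 2-fold changes held on all 3 scales. There were 119 higher and 328 lower after median-of-ratios rescaling and 128 and 303 at equal totals. Without the mean-variance trend of the fit 1909 genes were higher and 1319 lower. In the main fit, 3292 of the 11860 genes with a mean of at least 50 were higher and 1609 lower. Both shares were larger there than over all tested genes. Counts given below for another setting are to be read against the shares of that setting.

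**Figure D1:**
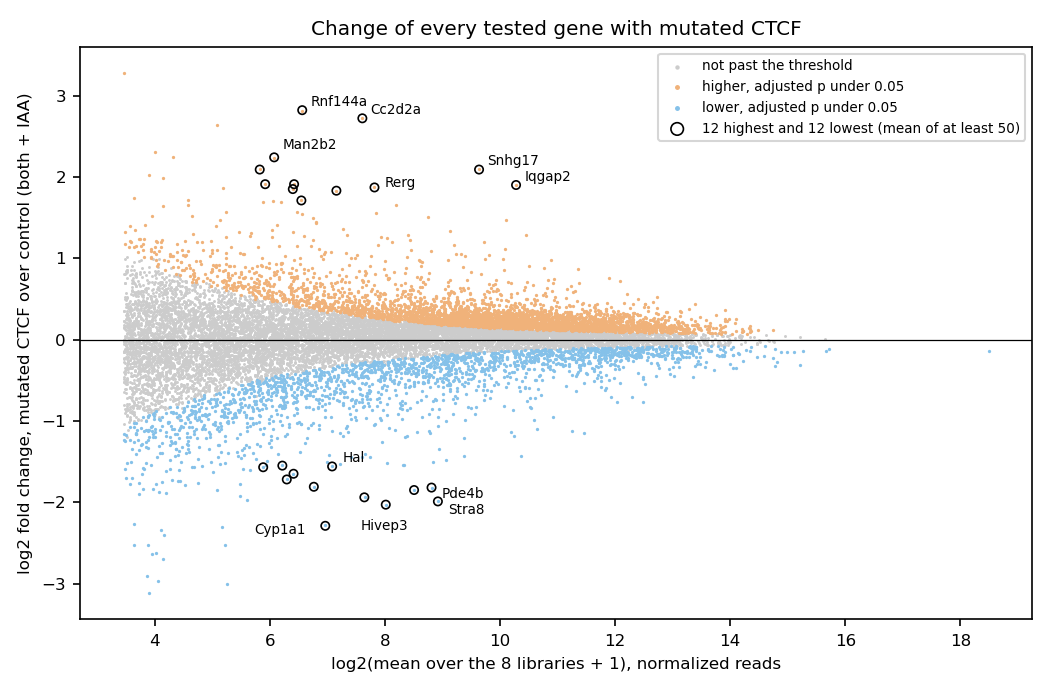
Log2 fold change of mutated CTCF over control, both with IAA, for each of the 15818 tested genes against log2 of the mean over the 8 libraries plus 1. Orange and blue points passed the adjusted p threshold, grey points did not, and open circles mark the 12 highest and 12 lowest genes with a mean of at least 50 normalized reads, which lay between 1.71 and 2.82 and between -2.29 and -1.55.

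The genes that rose most reached several times their level in CTCF-depleted control cells. The 12 highest, chosen among genes past the threshold with a mean of at least 50 normalized reads and with libraries that did not overlap, rose by 1.71 to 2.82 on the log2 scale. Rnf144a, an E3 ubiquitin ligase (chromosome 12, 26300964 to 26415254, GRCm38), had 9.53 and 16.5 normalized reads in the control with IAA and 81.5 and 110 with mutated CTCF. It had 155 and 146 in the control without IAA and 103 and 126 with wild-type CTCF, so the depleted control stood alone at the low end. The rise with mutated CTCF was 7.04-fold (log2 fold change 2.82, SE 0.2, adjusted p = 1.8e-14). Cc2d2a, a protein of the ciliary transition zone (chromosome 5, 43662346 to 43740972), went from 16.7 and 25.3 to 135 and 147 (log2 fold change 2.72, SE 0.15, adjusted p = 3.8e-18). Both mutated CTCF libraries lay below the 381 and 391 of the untreated control and below the 219 and 236 with wild-type CTCF. Snhg17, a noncoding host of small nucleolar RNAs (chromosome 2, 158353700 to 158361580, processed transcript), had 154 and 180 reads in the depleted control and 732 and 694 with mutated CTCF (a log2 change of 2.09 with SE 0.071, adjusted p = 2.4e-24). It too stayed under the 953 and 983 of wild-type CTCF.

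Several of the highest genes were higher with mutated than with wild-type CTCF. Vmn2r1, a vomeronasal receptor gene (chromosome 3, 64081547 to 64109484), had 52.4 and 48.4 normalized reads in the depleted control, 28 and 36.4 with wild-type CTCF and 189 and 179 with mutated CTCF. It was the exception among the 12, since both mutated CTCF libraries also exceeded the 66.9 and 66.4 of the untreated control. Its log2 fold change was 1.85 over the depleted control (adjusted p = 9.2e-11) and 2.49 over wild-type CTCF (adjusted p = 2.6e-14). Rerg, a Ras-related GTPase (chromosome 6, 137054825 to 137170497), had 73.9 and 69.3 reads in the depleted control, 139 and 118 with wild-type CTCF and 254 and 276 with mutated CTCF. The difference from wild-type CTCF was 1.04 (adjusted p = 2.3e-09). Iqgap2, a scaffold protein that binds small GTPases and calmodulin (chromosome 13, 95627177 to 95891922), had 386 and 412 reads in the depleted control and 1511 and 1477 with mutated CTCF. That was close to its 1734 and 1701 reads without IAA, though still 0.20 lower on the log2 scale (log2 fold change -0.20, adjusted p = 0.0047). Against wild-type CTCF, 5 of the 12 were higher (Vmn2r1, Rerg, Slc48a1, Tmem14a and Iqgap2), 4 were lower (Col27a1, Cc2d2a, Snhg17 and Det1) and 3 did not pass the threshold. Over all genes, 34.7% passed in that comparison, 16.3% higher and 18.4% lower, and it shares the mutated CTCF libraries with the first. For 11 of the 12 both mutated CTCF libraries lay below both libraries of the untreated control, and for 9 of them that difference passed the threshold, against 37.8% of all genes (24% higher, 13.7% lower). For reference, 31.6% of genes passed for wild-type CTCF against the depleted control and 37.7% between the controls with and without IAA, comparisons that share libraries with those above.

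**Figure D2:**
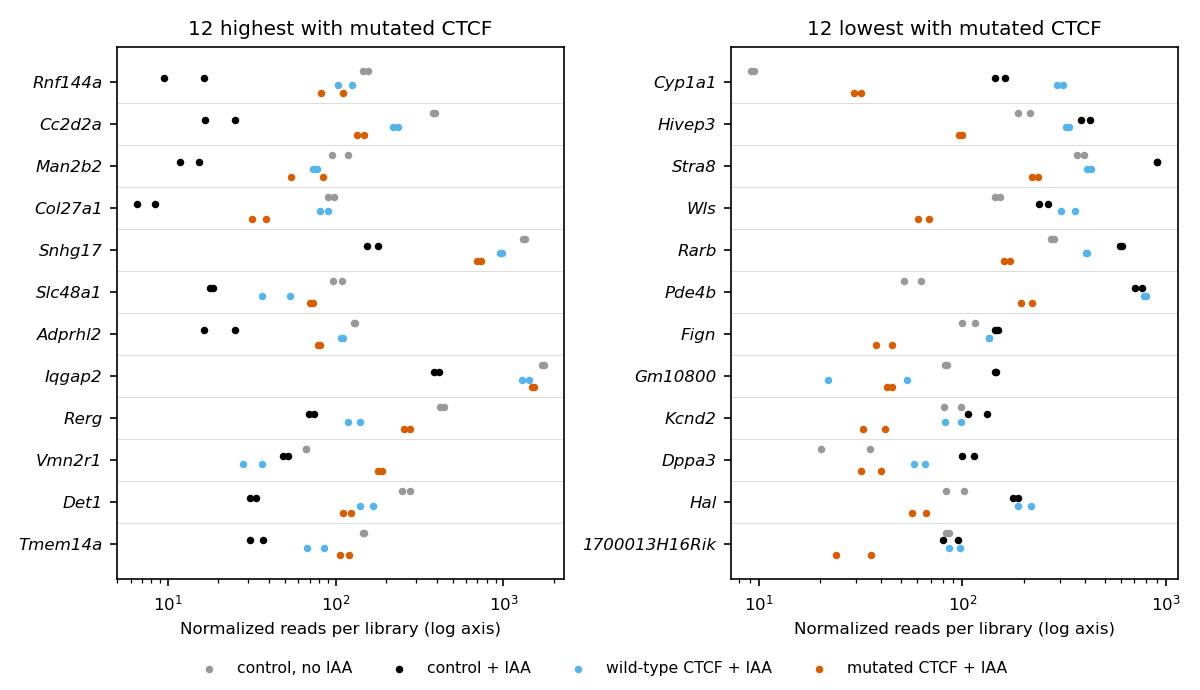
Normalized reads in each of the 8 libraries, on a log axis, for the 12 genes highest (left) and the 12 lowest (right) with mutated CTCF against control, both with IAA. Each point is 1 library. The orange points of mutated CTCF lie to the right of the black points of the depleted control on the left panel and to the left of them on the right panel, as the choice of genes without overlap requires.

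The promoters of 3 of these genes held the core of the CTCF motif and are shown to let the sequence be read beside the values. The core searched was CC, any 3 bases, AGG, any base and GGC, on either strand, in windows from 250 bases before to 50 after the RefSeq start (GRCm38.p6). Of the 24 genes named as highest or lowest, 16 had a window, 10 of them among the highest and 6 among the lowest. The 3 with a match, among the highest, were Man2b2, a lysosomal mannosidase, Col27a1, a fibrillar collagen, and Adprhl2, an ADP-ribose hydrolase. The windows, 5′ to 3′ on the strand of the gene, have the match in capitals. They lie at chr5:36830600-36830899 on the minus strand, chr4:63215162-63215461 on the plus strand and chr4:126321654-126321953 on the minus strand.
Man2b2: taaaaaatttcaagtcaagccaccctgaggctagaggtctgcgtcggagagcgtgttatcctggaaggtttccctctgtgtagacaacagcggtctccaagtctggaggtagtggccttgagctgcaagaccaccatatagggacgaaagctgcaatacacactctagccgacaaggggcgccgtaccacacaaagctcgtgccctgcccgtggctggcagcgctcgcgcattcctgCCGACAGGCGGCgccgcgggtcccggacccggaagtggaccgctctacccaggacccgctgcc
Col27a1: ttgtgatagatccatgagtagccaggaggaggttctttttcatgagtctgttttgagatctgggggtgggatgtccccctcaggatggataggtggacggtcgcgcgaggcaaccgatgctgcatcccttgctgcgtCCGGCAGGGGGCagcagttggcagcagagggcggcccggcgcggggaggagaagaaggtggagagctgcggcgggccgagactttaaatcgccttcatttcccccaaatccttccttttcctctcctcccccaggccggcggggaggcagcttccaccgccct
Adprhl2: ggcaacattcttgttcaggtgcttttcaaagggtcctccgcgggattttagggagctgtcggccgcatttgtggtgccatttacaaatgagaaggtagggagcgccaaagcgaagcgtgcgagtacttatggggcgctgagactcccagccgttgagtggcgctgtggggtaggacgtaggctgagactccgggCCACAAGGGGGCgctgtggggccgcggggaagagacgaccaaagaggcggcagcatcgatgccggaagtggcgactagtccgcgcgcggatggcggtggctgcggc

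Man2b2 had 11.9 and 15.4 normalized reads in the depleted control, 54.3 and 84 with mutated CTCF, 77.8 and 73.8 with wild-type CTCF and 118 and 95.7 without IAA (log2 fold change over the depleted control 2.24, adjusted p = 5.1e-11). Mutated and wild-type libraries of Man2b2 overlapped. Col27a1 had 8.34 and 6.6 reads in the depleted control, 38.7 and 31.6 with mutated CTCF, 90 and 81.3 with wild-type CTCF and 97.8 and 90.5 without IAA. Its level with mutated CTCF was thus above the depleted control (log2 fold change 2.09, adjusted p = 1.4e-09) and below wild-type CTCF (log2 fold change -1.27, adjusted p = 2.8e-05). Adprhl2 had 25 and 16.5 reads in the depleted control, 80.5 and 78.1 with mutated CTCF, 107 and 110 with wild-type CTCF and 131 and 129 without IAA. It was 1.91 above the depleted control (adjusted p = 6.2e-11), and its difference of -0.45 from wild-type CTCF had an adjusted p of 0.056. Over all tested genes with a window, 584 of 10425 (5.6%) held the core, against 3.43% of all windows of the RefSeq table. The share was 6.95% of 2474 higher genes, 4.88% of 1311 lower genes and 5.24% of the rest. Among 2-fold changes it was 14 of 83 higher genes (16.9%) and 5 of 161 lower genes (3.11%). A match is a run of letters and not a measured binding site, and these shares were not tested.

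The genes that fell most with mutated CTCF were mostly ones that stood above the untreated level in depleted control cells. Their choice by a fall from those same depleted libraries favours such genes. For 9 of the 12 both mutated CTCF libraries lay below the untreated control as well. Their log2 fold changes ran from -2.29 to -1.55. Hivep3, a zinc-finger transcription factor (chromosome 4, 119733784 to 120138045), had 422 and 383 normalized reads in the depleted control and 99.3 and 95.9 with mutated CTCF (a log2 change of -2.03 with SE 0.1, adjusted p = 7.8e-19). It had 214 and 188 without IAA and 324 and 333 with wild-type CTCF, so mutated CTCF gave the lowest level of the 4 groups. Fign, a microtubule-severing ATPase (chromosome 2, 63971507 to 64098038), had 150 and 144 reads in the depleted control, 135 and 135 with wild-type CTCF, 99.5 and 115 without IAA and 44.9 and 37.6 with mutated CTCF (log2 fold change -1.81, adjusted p = 1.7e-12). Kcnd2, a potassium channel (chromosome 6, 21215503 to 21729805), fell from 106 and 132 to 41.8 and 32.6 (log2 fold change -1.65, adjusted p = 9.8e-10). In all 3 of these the mutated CTCF libraries formed the lowest group.

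Pde4b, which degrades cyclic AMP (chromosome 4, 102087543 to 102607259), had 62.7 and 51.7 normalized reads without IAA, 762 and 705 in the depleted control, 784 and 801 with wild-type CTCF and 193 and 220 with mutated CTCF. The level with mutated CTCF was 1.82 lower on the log2 scale than in the depleted control (log2 fold change -1.82, SE 0.099, adjusted p = 3.8e-18) and stayed above the untreated control (log2 fold change 1.84, adjusted p = 2.3e-18). Hal, the first enzyme of histidine breakdown (chromosome 10, 93488768 to 93519304), fell from 187 and 177 to 56.4 and 66.2 (log2 fold change -1.56, adjusted p = 1.7e-11). The gene 1700013H16Rik (chromosome X, 53742901 to 53757831) had 95.3 and 80.3 reads in the depleted control and 24 and 35.6 with mutated CTCF, while the other 4 libraries lay between 82.7 and 97. Gm10800, a gene model of under 1 kb (chromosome 2, 98666547 to 98667301), fell from 145 and 146 to 44.9 and 42.5, but its 21.9 and 53.5 reads with wild-type CTCF spanned those values, and reads shared with other copies were not checked. Against wild-type CTCF, 11 of the 12 were lower with mutated CTCF and Gm10800 did not pass the threshold. Among all genes 18.4% were lower and 16.3% higher in that comparison. Against the untreated control 9 of the 12 were lower and 2 higher, against 13.7% and 24% of all genes. Both comparisons share the mutated CTCF libraries by which the 12 were chosen, which favours lower calls. Each of the 24 genes kept its direction and its call in every alternative run.

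Retinoic acid signalling stood out among the gene lists by its decreases. Retinoic acid is made from vitamin A by dehydrogenases, is carried by binding proteins, and acts through nuclear receptors that turn on developmental and germline genes. Of 19 tested members, 10 fell and 2 rose, against 12.4% and 22% of all tested genes, with a median log2 fold change of -0.36 against 0.06. The count of decreases was 8 to 11 over the alternatives, and the median was -0.21 after adjustment for GC content and gene length. Among the targets 5 of 6 fell and 1 rose, among the receptors 2 of 5 fell and 1 rose, and among binding and synthesis genes 3 of 8 fell.

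Stra8, the target that starts meiosis in germ cells (chromosome 6, 34920163 to 34939344), had 903 and 908 normalized reads in the depleted control and 235 and 220 with mutated CTCF. It had 365 and 397 without IAA and 427 and 410 with wild-type CTCF, so its level with mutated CTCF was the lowest of the 4 groups. The log2 fold change was -1.99 against the depleted control (SE 0.079, adjusted p = 2.1e-22) and -0.87 against wild-type CTCF (adjusted p = 1.1e-11). Rarb, a retinoic acid receptor that is itself a target of the pathway (chromosome 14, 16430839 to 16819156), had 605 and 597 reads in the depleted control, 403 and 408 with wild-type CTCF, 283 and 272 without IAA and 171 and 160 with mutated CTCF. That fall was 1.85 on the log2 scale (log2 fold change -1.85, SE 0.087, adjusted p = 4.8e-20). Stra6, the cell-surface receptor for vitamin A carrier protein, went from 26.2 and 17.6 to 6.27 and 4.94 (log2 fold change -1.77, adjusted p = 1.4e-04), at few reads.

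Meis2, a homeobox cofactor of Hox proteins, also fell. It had 5938 and 6192 normalized reads in the depleted control, 8322 and 8254 with wild-type CTCF and 3520 and 3595 with mutated CTCF (log2 fold change against the depleted control -0.77, SE 0.035, adjusted p = 2.0e-20). Rarg, another receptor, Meis1, a relative of Meis2, and Dhrs3, a retinal reductase, fell by 0.60, 0.53 and 0.40. The 2 members that rose were Tgm2 and Rxra. Tgm2, a transglutaminase and retinoic acid target, had 96.5 and 85.8 reads in the depleted control, 206 and 240 with mutated CTCF and 204 and 226 without IAA (log2 fold change 1.28, SE 0.15, adjusted p = 3.9e-09). Rxra, the partner of the retinoic acid receptors, was 0.21 higher (adjusted p = 0.01). The remaining 7 members, among them Rara, Crabp1, Crabp2 and Aldh1a2, did not pass the threshold. Members such as Stra6, Meis2 and Rarg were named here because the pathway is described whole, after their values were seen.

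**Figure D3:**
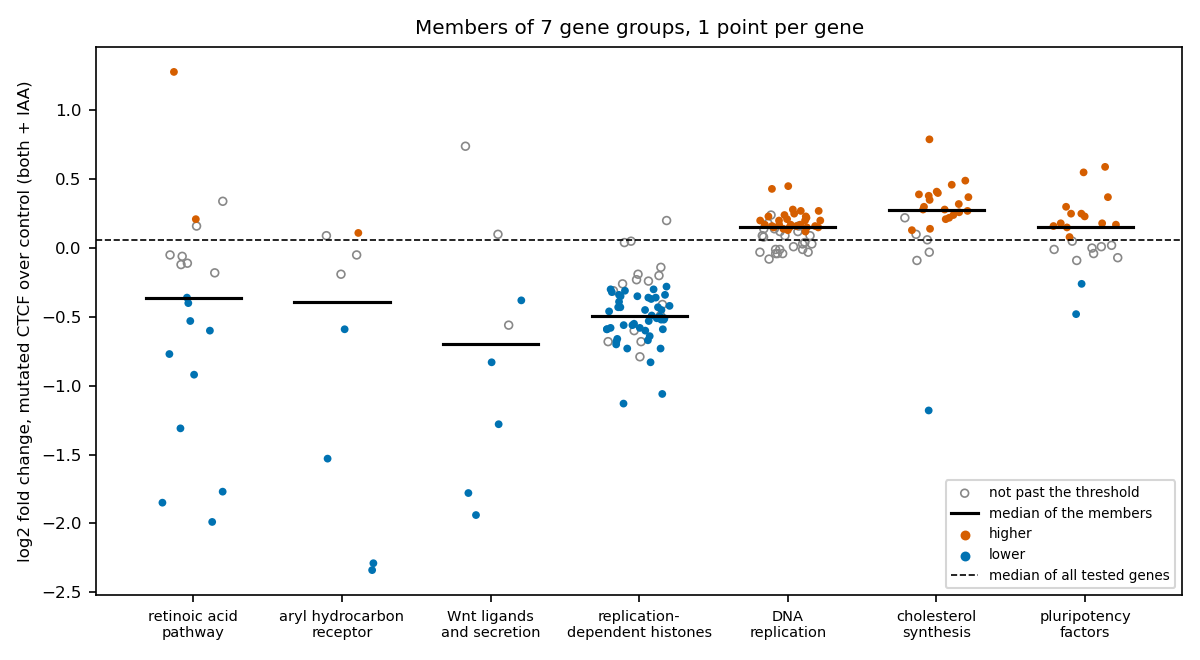
Log2 fold change of mutated CTCF over control, both with IAA, for each tested member of 7 gene groups. Filled points passed the threshold, open points did not, horizontal bars are the medians of the members and the dashed line is the median of all tested genes at 0.06. The medians were -0.36 for the retinoic acid pathway, -0.39 for aryl hydrocarbon receptor genes, -0.69 for Wnt ligands and secretion genes (with Notum), -0.49 for replication-dependent histones, 0.15 for DNA replication, 0.27 for cholesterol synthesis and 0.15 for pluripotency factors.

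Of 4 tested targets of the aryl hydrocarbon receptor 3 fell, as did its repressor gene, while the receptor gene itself did not pass the test. Among all tested genes 12.4% fell and 22% rose. This receptor binds flat aromatic ligands, pairs with ARNT and turns on detoxifying enzymes and its own repressor. Cyp1a1, a cytochrome P450 and the classical target (chromosome 9, 57687928 to 57703824), had 9.19 and 9.48 normalized reads without IAA, 161 and 144 in the depleted control, 292 and 313 with wild-type CTCF and 29.3 and 31.6 with mutated CTCF. Both lines with IAA but no mutated CTCF were thus high, and mutated CTCF lay between them and the untreated control. The log2 fold change was -2.29 against the depleted control (SE 0.18, adjusted p = 4.6e-13) and -3.27 against wild-type CTCF (adjusted p = 1.4e-17). It was also higher than in the untreated control (adjusted p = 2.9e-09). Ahrr, the repressor of the receptor, had 38.4 and 47.4 reads without IAA, 192 and 209 in the depleted control, 268 and 280 with wild-type CTCF and 64.8 and 73.2 with mutated CTCF (log2 fold change against the depleted control -1.53, adjusted p = 3.8e-11). Cyp1b1, a related cytochrome P450 with few reads, had 15.5 and 23.1 in the depleted control and 4.18 and 1.98 with mutated CTCF, which overlapped its 0.836 and 3.45 without IAA (a log2 change of -2.34 with SE 0.45, adjusted p = 7.2e-05).

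Nqo1, a quinone reductase that is a target of both this receptor and NRF2, had 760 and 702 normalized reads in the depleted control and 470 and 499 with mutated CTCF, level with its 449 and 499 without IAA (log2 fold change -0.59, adjusted p = 4.4e-08). The receptor gene Ahr had 800 and 767 reads in the depleted control and 830 and 841 with mutated CTCF (log2 fold change 0.09, adjusted p = 0.24), and Tiparp, another target, had 3180 and 3160 against 3028 and 3076 (log2 fold change -0.05, adjusted p = 0.3). Of the 8 tested members, 4 fell and Arnt rose by 0.11 (adjusted p = 0.037), a call lost under 8 alternatives. Among 27 NRF2 antioxidant genes, 5 (18.5%) fell and 2 (7.41%) rose, the decreases not far from the 12.4% of all genes that fell, while 22% of all genes rose. After median-of-ratios rescaling 9 fell and 1 rose, against 17% and 17.1% of all genes on that scale. Fewer fell without control replicate 1. Without the mean-variance trend or without mutated CTCF replicate 2, 0 rose. Hmox1, heme oxygenase, was 0.40 lower on the log2 scale (log2 fold change -0.40, adjusted p = 0.0029), and the regulator Nfe2l2 itself was 0.12 higher (adjusted p = 0.012), a call lost under 6 alternatives.

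Of 8 tested genes for Wnt ligands, their export and their inactivation 5 fell, against 12.4% of all genes, while the intracellular part of the pathway was divided. Wnt ligands are lipid-modified by Porcn, carried to the surface by Wls and bound by Frizzled and LRP receptors, after which beta-catenin acts with TCF and LEF factors. Wls (chromosome 3, 159839672 to 159938664) had 262 and 238 normalized reads in the depleted control, 306 and 356 with wild-type CTCF, 145 and 153 without IAA and 60.6 and 68.2 with mutated CTCF. Its log2 fold change was -1.94 against the depleted control (SE 0.12, adjusted p = 2.9e-16) and -2.34 against wild-type CTCF (adjusted p = 9.1e-19). Porcn had 50 and 48.4 reads in the depleted control, 62.9 and 80.2 with wild-type CTCF, 41.8 and 40.5 without IAA and 12.5 and 14.8 with mutated CTCF (a log2 change of -1.78 with SE 0.23, adjusted p = 7.1e-08). For both genes mutated CTCF gave the lowest level of the 4 groups. The ligand Wnt7b went from 23.8 and 16.5 to 7.31 and 7.91 (adjusted p = 0.002), and Wnt9a and the ligand deacylase Notum also fell. None of the 8 rose, and Wnt11, Wnt16 and Wnt5b did not pass the threshold.

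Of 50 tested Wnt pathway genes in all, 17 (34%) fell, against 12.4% of all genes, and 11 rose, the same 22% as of all genes. The counts were 12 to 18 and 5 to 12 over the alternatives. Lef1, a nuclear partner of beta-catenin, had 329 and 290 normalized reads in the depleted control and 138 and 152 with mutated CTCF, below the 257 and 262 of the untreated control (a log2 change of -1.09 with SE 0.1, adjusted p = 1.9e-11). Cdx1, a homeobox target of Wnt and retinoic acid, had 709 and 752 reads in the depleted control and 237 and 277 with mutated CTCF, which overlapped the 236 and 253 without IAA (log2 fold change -1.51, adjusted p = 7.7e-18). Lgr6, a receptor for R-spondins, fell by 1.19. Axin2, a feedback target, was 0.19 higher (adjusted p = 0.0061), with 1046 and 1087 reads against 1210 and 1225, and Ctnnb1, which encodes beta-catenin, was 0.18 higher. Sfrp1, a secreted Wnt antagonist, rose from 1421 and 1473 to 2154 and 2348 (log2 fold change 0.64, SE 0.05, adjusted p = 1.8e-13). The rise in Dvl1 of 0.40 (adjusted p = 0.039) was lost under 9 alternatives.

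Hedgehog and Notch genes had 9 decreases and 3 increases among 22 tested, against 12.4% and 22% of all genes. The decreases numbered 4 without the mean-variance trend or without control replicate 2, and 5 under DESeq2 or without mutated CTCF replicate 2. Gli3, a zinc-finger effector of Hedgehog signalling, went from 3576 and 3610 normalized reads to 2494 and 2571 (log2 fold change -0.50, adjusted p = 2.9e-13), and Boc, Cdon, Smo and Ptch1 of the receptor complex fell by 0.36, 0.34, 0.31 and 0.21. The Notch ligand Dll1 went from 22.6 and 26.4 to 12.5 and 12.9 (adjusted p = 0.034), a call lost under 5 alternatives. Nodal and BMP genes were divided, with 6 of 36 higher (1 without the trend, 3 without mutated CTCF replicate 2) and 7 lower (11 after median-of-ratios rescaling, 4 after adjustment for GC content and gene length). Lefty1, a Nodal inhibitor, went from 127 and 93.5 to 61.6 and 62.3 (adjusted p = 6.6e-04). Id4, a BMP target, rose from 139 and 133 to 253 and 228 (log2 fold change 0.81, adjusted p = 3.8e-07). FGF-ERK genes had 9 increases and 1 decrease among 33, but 7 and 6 after median-of-ratios rescaling and with 3 increases without the trend and 5 without mutated CTCF replicate 2.

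Of 23 tested pluripotency transcription factors 13 rose, 2 fell and 8 did not pass the threshold, with a median of 0.15, against 22% higher and 12.4% lower among all genes. Without the mean-variance trend in the fit, 5 rose and 1 fell, and after adjustment for GC content and gene length 10 rose, with a median of 0.08. The median for wild-type CTCF against the same control was 0.20. Between mutated and wild-type CTCF, 13 of these factors were lower and 5 higher. Esrrb, an orphan nuclear receptor of the naive state, had 13724 and 14250 normalized reads in the depleted control and 16293 and 16985 with mutated CTCF (a log2 change of 0.25 with SE 0.03, adjusted p = 1.1e-08). Nanog had 5172 and 5219 against 5697 and 5956 (log2 fold change 0.17, adjusted p = 3.3e-04), and wild-type CTCF libraries were higher still, at 6424 and 6824. Pou5f1, which encodes Oct4, had 1136 and 1028 against 1191 and 1343 (log2 fold change 0.23, adjusted p = 0.0042). Tcl1, a kinase cofactor, rose most, from 242 and 282 to 388 and 400 (log2 fold change 0.59, adjusted p = 5.0e-06). Gbx2 and Tcf7l1 were the members that fell, by 0.48 and 0.26.

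Of 17 tested Dppa family and stem-cell-restricted genes 6 (35.3%) rose and 4 (23.5%) fell, against 22% and 12.4% of all genes. After median-of-ratios rescaling 4 rose and 5 fell, without the mean-variance trend 3 rose, and under DESeq2 2 fell. Dppa3, a maternal factor that protects DNA methylation marks (chromosome 6, 122626410 to 122630272), had 100 and 114 normalized reads in the depleted control, 65.6 and 57.8 with wild-type CTCF and 39.7 and 31.6 with mutated CTCF (a log2 change of -1.57 with SE 0.22, adjusted p = 4.6e-07). Its 20.1 and 35.3 reads without IAA overlapped the level with mutated CTCF. Dppa2, an activator of early embryonic genes, had 759 and 839 reads in the depleted control, 739 and 705 with wild-type CTCF, 843 and 801 without IAA and 435 and 464 with mutated CTCF. The fall of Dppa2 was 0.83 on the log2 scale (log2 fold change -0.83, SE 0.068, adjusted p = 6.7e-13), and the other 3 groups lay well above it. L1td1, an RNA-binding protein of pluripotent cells, rose from 1664 and 1650 to 2578 and 2638 (log2 fold change 0.65, SE 0.043, adjusted p = 1.1e-15), level with wild-type CTCF at 2625 and 2670. Of 17 formative and primed genes 3 (17.6%) fell and 2 (11.8%) rose, against 12.4% and 22% of all genes, and 6 fell after median-of-ratios rescaling or at equal totals, with Zic2 at 335 and 332 against 249 and 247 (adjusted p = 1.1e-04). Of 49 germline and meiosis genes 12 (24.5%) fell and 10 (20.4%) rose, the increases near the background. Without control replicate 1, 5 rose, and without the trend or under DESeq2 6 did. Beside Stra8, Asz1 of the piRNA pathway fell from 60.7 and 51.7 to 30.3 and 19.8 (log2 fold change -1.16, adjusted p = 2.3e-05). Meiob, a meiotic recombination factor, rose from 21.4 and 13.2 to 36.6 and 34.6 (log2 fold change 1.03, adjusted p = 0.0099).

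Most replication-dependent histone genes fell. These genes lie in clusters, lack poly(A) tails and are transcribed mainly in S phase. Of 63 tested, 47 (74.6%) fell and none rose, against 12.4% and 22% of all genes, with a median log2 fold change of -0.49. The decreases covered each family, with 5 of 6 H1 genes, 9 of 16 H2A, 11 of 17 H2B, 10 of 11 H3 and 12 of 13 H4. Summed over the 63 genes, the depleted control had 26784 and 26353 normalized reads and mutated CTCF 18016 and 19995, so the groups did not overlap. The sums were 22585 and 22629 without IAA and 19998 and 24720 with wild-type CTCF, and those wild-type libraries differed widely from each other. H1f4, a linker histone, had 666 and 662 reads in the depleted control and 313 and 322 with mutated CTCF, below the 492 and 490 without IAA (log2 fold change -1.06, SE 0.083, adjusted p = 1.9e-13). Of 11 variant histone genes, transcribed outside the clusters, 3 rose and 3 fell. H2az2 rose from 1016 and 994 to 1216 and 1213 (log2 fold change 0.27, adjusted p = 1.0e-04) and the centromeric Cenpa from 1011 and 998 to 1148 and 1251 (log2 fold change 0.25, adjusted p = 5.6e-04). Members of a histone family are near-identical in sequence, so how reads were split between them is uncertain. Over all 74 histone genes 50 fell, and without the mean-variance trend 24 did.

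More DNA replication and mitosis genes rose than fell. Of 53 DNA replication genes 29 rose and none fell, with a median of 0.15, and of 57 mitosis genes 31 rose and 2 fell, with a median of 0.13, against 22% higher and 12.4% lower among all genes. Without the mean-variance trend 7 and 6 rose, and neither share then stood clear of the 1909 of 15818 over all genes. After median-of-ratios rescaling 22 and 22 rose, against 17.1% of all genes. Both counts were also smaller without control replicate 1 or mutated CTCF replicate 2. For wild-type CTCF against the depleted control the medians were 0.14 and 0.04. Against wild-type CTCF, 12 replication genes were higher and 7 lower with mutated CTCF, and 24 mitosis genes were higher and 1 lower. Gins2, a subunit of the replicative helicase, had 173 and 192 normalized reads in the depleted control and 232 and 267 with mutated CTCF (log2 fold change 0.45, adjusted p = 0.0011). Rrm2, the small subunit of ribonucleotide reductase, went from 953 and 922 to 1198 and 1326 (log2 fold change 0.43, SE 0.058, adjusted p = 2.1e-07). The mutated CTCF libraries of both genes overlapped the untreated ones, which had 283 and 259 reads for Gins2 and 1281 and 1299 for Rrm2. Ncaph2, a condensin subunit, was 0.35 higher and Sgo1, which guards centromeric cohesion, 0.27 higher, while the kinetochore gene Spc24 fell from 471 and 443 to 359 and 387 (adjusted p = 0.0049).

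Cohesin genes, whose products extrude the loops that CTCF halts, were divided, with 4 of 17 higher and 4 lower (23.5% each, against 22% and 12.4% of all genes). Without the mean-variance trend 1 was higher and 2 were lower. Stag1, which encodes a cohesin subunit, had 45808 and 46632 normalized reads in the depleted control, 37278 and 36818 with mutated CTCF and 28799 and 29972 without IAA (log2 fold change -0.32, SE 0.025, adjusted p = 1.7e-13). Mutated CTCF therefore lay between both controls. Rad21, the kleisin subunit, was 0.12 higher (adjusted p = 0.0051), a call lost under 4 alternatives, and the subunit gene Smc3 was 0.17 higher, whereas the loader gene Nipbl was 0.14 lower. Esco2, which acetylates cohesin in S phase, rose from 1378 and 1268 to 1763 and 1815 (log2 fold change 0.44, SE 0.049, adjusted p = 3.2e-09). Of 14 genes for looping factors and reported CTCF partners 4 (28.6%) rose and none fell, near the 22% of all genes that rose, and 2 rose without mutated CTCF replicate 2. Ldb1, an enhancer-looping adaptor, went from 462 and 480 to 600 and 654 (log2 fold change 0.41, adjusted p = 2.5e-05), and Yy1, a zinc-finger factor that bridges promoters and enhancers, from 3159 and 3322 to 3948 and 3822 (log2 fold change 0.26, adjusted p = 1.3e-06). After median-of-ratios rescaling 4 partners rose and 3 fell.

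Chromatin regulators showed no single direction, and several lists were near the 22% higher and 12.4% lower of all genes. Of 33 Polycomb genes 13 (39.4%) rose and 6 (18.2%) fell, and 8 and 3 did without the mean-variance trend. Aebp2, an accessory subunit of the H3K27 methyltransferase complex, fell from 6131 and 6190 normalized reads to 4527 and 4391, below its 5793 and 5827 without IAA (log2 fold change -0.47, SE 0.034, adjusted p = 4.4e-14). Phc2, of the ubiquitin ligase complex, rose from 506 and 587 to 772 and 836 (log2 fold change 0.56, adjusted p = 2.9e-08). Of 28 remodelling genes 7 (25%) fell and 5 (17.9%) rose, with no increase without the trend and 4 decreases without control replicate 2 or without mutated CTCF replicate 1. The largest fall was that of Smarca2, an ATPase of the SWI/SNF complex, with 110 and 82.5 against 47 and 44.5 (log2 fold change -1.04, adjusted p = 4.3e-06). Its relative Smarca1, of the ISWI family, went from 244 and 274 to 122 and 142 (log2 fold change -0.97, adjusted p = 1.7e-08). Of 20 DNA methylation genes 6 (30%) rose and 3 (15%) fell, by at most 0.48 in size. Without the trend 1 rose and 0 fell, and 0 fell without control replicate 2 or without mutated CTCF replicate 1. Among the 9 tested Hox genes 4 fell and none rose, but 1 fell without the trend, under DESeq2, or without control replicate 2 or mutated CTCF replicate 2, and 3 of the 4 calls (Hoxb13, Hoxb9 and Hoxc13) had an adjusted p between 0.032 and 0.048.

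**Figure D4:**
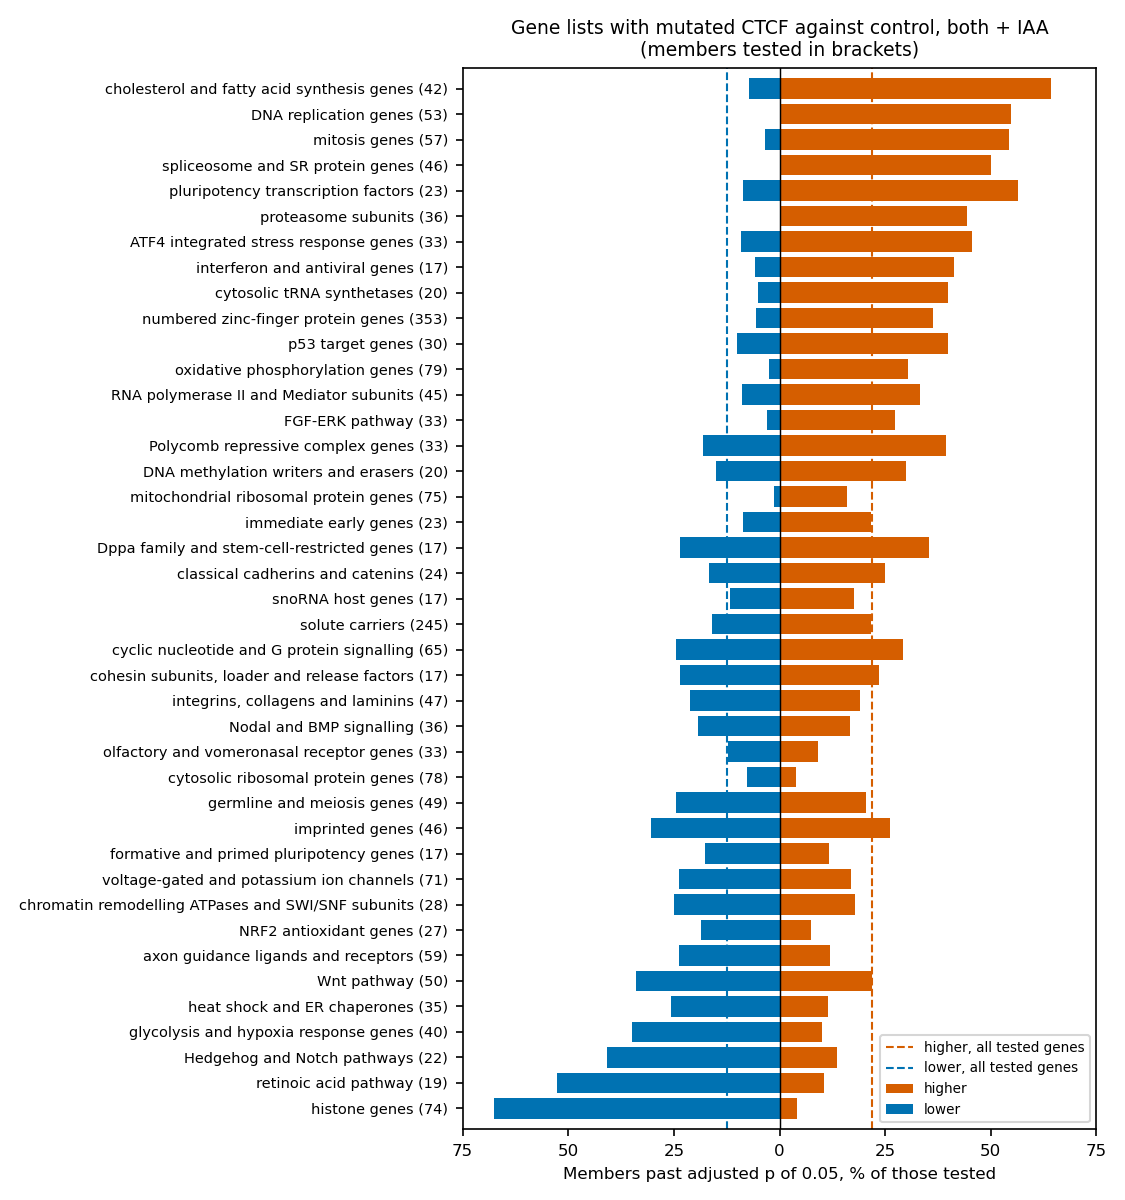
Share of tested members that passed the threshold, in percent, for each gene list with at least 15 tested members, with lower members drawn to the left and higher ones to the right. Dashed lines give the shares over all tested genes, 12.4% lower and 22% higher. Cholesterol and fatty acid synthesis genes had 64.3% higher, and histone genes 67.6% lower.

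Most sterol synthesis genes rose. The pathway makes cholesterol from acetyl-CoA under the control of SREBP2. Of 26 tested cholesterol genes 20 (76.9%) rose and 1 fell, against 22% and 12.4% of all genes, with a median log2 fold change of 0.27. After median-of-ratios rescaling 20 also rose. The rise was not particular to mutated CTCF, since the median for wild-type CTCF against the same control was 0.32. Between mutated and wild-type CTCF 3 of these genes were higher and 5 lower, with a median of -0.06. Hmgcs1, an early enzyme of the pathway, had 5008 and 5212 normalized reads in the depleted control, 7025 and 7037 with mutated CTCF, 6676 and 7055 with wild-type CTCF and 6665 and 6752 without IAA. The depleted control was the low group, and its difference from mutated CTCF was 0.46 (SE 0.035, adjusted p = 7.1e-14). Pmvk, phosphomevalonate kinase, rose from 193 and 158 to 297 and 309 (log2 fold change 0.79, adjusted p = 7.4e-08). Of 16 fatty acid genes 7 rose and 2 fell. Scd2, a desaturase, rose from 5083 and 5153 to 7057 and 7645 (log2 fold change 0.52, SE 0.043, adjusted p = 8.2e-13), while Acaca, acetyl-CoA carboxylase, was 0.20 lower.

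The counts for stress pathways stand against 22% higher and 12.4% lower among all genes. Of 33 genes of the ATF4 response to amino acid shortage 15 rose and 3 fell, although Atf4 itself had 1356 and 1212 normalized reads in the depleted control and 1277 and 1310 with mutated CTCF (log2 fold change 0.01, adjusted p = 0.89). Without the mean-variance trend 5 rose and 3 fell, and 6 rose without control replicate 1 and 9 without mutated CTCF replicate 2. Chac1, a glutathione-degrading target, went from 95.3 and 88 to 140 and 149 (log2 fold change 0.65, adjusted p = 6.0e-04). Of 30 p53 genes 12 rose (7 without the trend or without control replicate 1) and 3 fell (5 after median-of-ratios rescaling, 1 without the trend or under DESeq2), with Trp53 at 0.11 (adjusted p = 0.12). Cdkn1a, the cell cycle inhibitor p21, had 793 and 821 reads in the depleted control, 1157 and 1161 with mutated CTCF, 1375 and 1350 with wild-type CTCF and 1331 and 1305 without IAA (log2 fold change 0.52, SE 0.053, adjusted p = 2.9e-10). It was therefore partway between the depleted control and the other groups. Of 18 endoplasmic reticulum chaperone genes 7 fell and 1 rose, with Hspa5, the BiP chaperone, at 2479 and 2410 against 1934 and 1972 (log2 fold change -0.32, adjusted p = 2.3e-07). Median-of-ratios rescaling made that 12 lower and 1 higher, against 17% lower and 17.1% higher among all genes on that scale. Of 17 cytosolic and mitochondrial chaperone genes 3 rose and 2 fell. Over all 35 chaperone genes 9 fell, but 3 did without the mean-variance trend and 5 under DESeq2.

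Among energy genes, against 12.4% lower and 22% higher over all genes, 14 of 40 for glycolysis and hypoxia fell and 4 rose. These were 21 and 4 after median-of-ratios rescaling, where 17% of all genes fell and 17.1% rose. Without the mean-variance trend they were 6 and 3, and fewer fell without control replicate 1. Bnip3, a hypoxia-induced mitophagy receptor, fell from 199 and 220 normalized reads to 112 and 125, below its 174 and 195 without IAA (log2 fold change -0.82, adjusted p = 2.9e-07). Pfkfb3, which makes the activator of phosphofructokinase, rose from 412 and 462 to 679 and 780 (log2 fold change 0.74, adjusted p = 3.2e-10). Of 79 respiratory chain genes 24 (30.4%) rose and 2 fell, with Ndufab1 at 492 and 498 against 690 and 715 (log2 fold change 0.50, adjusted p = 7.3e-08). All 79 had a mean of at least 50 normalized reads. Of the 11860 tested genes with such a mean 3292 rose, a share close to that of the respiratory chain list. DESeq2 called 11 higher and none lower in that list, and 14 were higher without mutated CTCF replicate 2. The 75 mitochondrial ribosomal protein genes held fewer calls than the background, 12 higher (16%, with 4 genes without the trend and 6 without control replicate 1) and 1 lower, but they included large ones. Mrpl23 had 2.38 and 6.6 reads in the depleted control, 29.3 and 31.6 with mutated CTCF and 62.7 and 64.7 without IAA (log2 fold change 2.63, SE 0.31, adjusted p = 9.2e-09). Mrps2 had 135 and 163, 378 and 476 and 591 and 603 (log2 fold change 1.51, adjusted p = 2.3e-15). Cytosolic ribosomal protein genes had 3 of 78 higher and 6 lower, also below the background on the deposited scale. After median-of-ratios rescaling 16 of the 78 were lower, against 17% of all genes on that scale. Without control replicate 1 or 2 there were 0 and 3 lower.

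The genes that fell had a longer median length than those that rose. The median length was 69.4 kb for lower genes, 28.6 kb for higher genes and 24 kb for all tested genes. With tested genes in 4 equal classes of length, the longest, from 59 kb up, had 27.3% lower and 19.7% higher, while the shortest, up to 9.39 kb, had 7.19% lower and 9.92% higher. The classes between them had 5.8% lower and 26.7% higher (9.39 to 24 kb), and 9.29% lower and 31.6% higher (24 to 59 kb). After median-of-ratios rescaling the longest class had 36.1% lower and 15.6% higher. With each library adjusted for gene length and GC content, 3229 genes were higher and 1772 lower in all. Values are not per length, so read number can differ with gene length, and its part in these shares was not tested. The shares themselves were not tested either, and genes are not independent replicates.

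**Figure D5:**
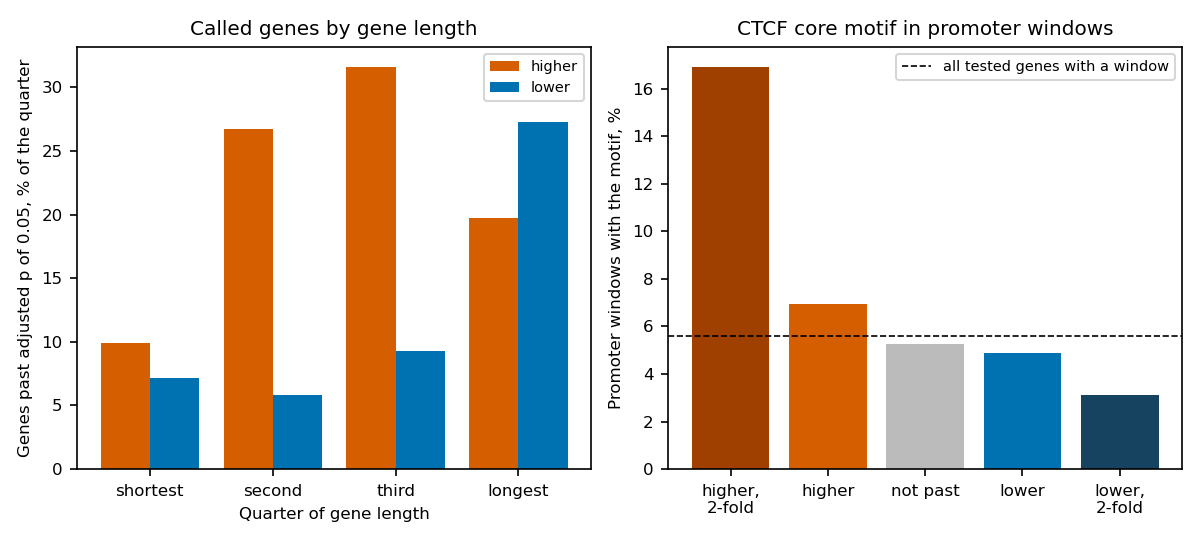
Left, percent of tested genes in each of 4 equal classes of gene length that passed the threshold, higher (orange) or lower (blue) with mutated CTCF. Right, percent of promoter windows with the CTCF core motif by class of change, from 16.9% of genes higher by 2-fold to 3.11% of genes lower by 2-fold, with the share over all tested genes with a window (5.6%) as a dashed line.

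Markers of other lineages differed beside these changes, and their part in them was not tested. The summed level of the listed mesoderm and definitive endoderm markers was 329 to 365 normalized reads in the depleted control and 240 to 261 with mutated CTCF, and that of the fibroblast markers 290 to 314 and 162 to 167. Fbn1, fibrillin, went from 160 and 135 to 76.3 and 74.1 (log2 fold change -0.96, adjusted p = 3.4e-07) and Pdgfrb, a growth factor receptor, from 155 and 155 to 90.9 and 88 (log2 fold change -0.79, adjusted p = 6.8e-05). Neuroectoderm markers summed to 562 to 563 in the depleted control and 714 to 769 with mutated CTCF, with Map2 at 339 and 342 against 485 and 440 (adjusted p = 2.3e-05) and Nes at 210 and 210 against 281 and 268 (adjusted p = 0.0043). Primitive endoderm markers summed to 4494 to 4781 and 5065 to 5236, but 3 of the 8 fell and 1 rose, with a median of -0.23, against 12.4% and 22% of all genes. Lama1 was 0.24 higher, while Col4a1 and Lamb1 fell by 1.21 and 0.78. Trophoblast markers summed to 674 to 715 and 640 to 683, which overlap. None of the listed markers was at 0 in both groups.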

How the data were processed

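The authors deposited 1 table of 16940 genes with a normalized signal per library. Per the submitters' processing notes, Trim Galore, STAR, featureCounts and DESeq2 were used with mm10, with versions not given in the sources used here. Deposited values were whole multiples of 1 step per library (100% within 0.01), so recovered whole reads could enter count tests, and 0 columns lay outside the series. Genes with a mean of at least 10 were tested with limma 3.58.1 (R 4.3.3) on log2(value + 1), a scale that understates changes of low genes. The fit had 8 libraries, 1 coefficient per group, a mean-variance trend, 4 residual degrees of freedom and Benjamini-Hochberg adjustment over 15818 genes. All adjusted p-values are from it. edgeR 4.0.16 (5222 genes called) and DESeq2 1.42.0 (3389) ran on recovered reads as alternatives. Other alternatives were pseudocounts of 0.5 and 10, no filter or a minimum of 50, 2 rescalings, only the 4 libraries, no trend, the replicate block, adjustment for GC content and gene length, and leaving out each library. The fit was tested on simulated data, but the outcome is not given here.

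The members and lists were chosen with earlier results of these data known. Genes named for the checks below were the 12 highest and 12 lowest past the threshold (mean of at least 50, no overlap between libraries), and the 2 highest and 2 lowest past it in each of 51 lists. Not every gene of this set is mentioned in the text. Ahr, Trp53, Atf4, Nfe2l2 and Rad21 were named whatever their result, and members of pathways described whole were added after their values were seen. Lists are given by counts, with no set test. Positions are from GENCODE M21 on GRCm38, by gene ID (16917 of 16940 found), and promoter windows from RefSeq on GRCm38.p6, within 2000 bases of the gene start (10425 tested genes matched). Replicates differed by more than counting error. The chi-square per degree of freedom was 1.44 in the depleted control, 1.65 with mutated CTCF and 1.34 in the untreated control. It was 3.35 with wild-type CTCF, whose libraries also enter the fit. Ctcf and a few other genes are not reported here.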

Additional observations from a re-analysis of the deposited data

How the results depend on the processing

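With 2 libraries a side, precision is limited by their number and, for genes near 10 normalized reads, by counting. Of the 185 named genes past the threshold, none changed direction. Calls were lost for 54 under DESeq2, 50 without the mean-variance trend, 29 to 33 when 1 library was left out, 11 after adjustment for GC content and gene length, 7 under edgeR and 4 after median-of-ratios rescaling. The main count of 5433 genes (3473 higher, 1960 lower, 425 at 2-fold) became 3228 without the trend (1909 higher) and 3389 under DESeq2 (2223 higher, 1166 lower, 235 at 2-fold). At 2-fold it was 181 with a pseudocount of 10 and 158 with a minimum mean of 50. Against wild-type CTCF 5489 genes became 3263 without the trend and 3259 under DESeq2, and against the untreated control 5975 became 3869 without the trend. Leaving out 1 library gave 3963 to 4426 genes (2372 to 2963 higher, 1429 to 1722 lower, 425 to 464 at 2-fold), 3969 to 4875 against wild-type CTCF and 4234 to 5000 against the untreated control. The lone library is then assumed to vary like the other groups. The cause of these differences was not tested. Other settings stayed within 1.5 times, among them edgeR on recovered reads with 5222 genes.

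The replicate numbers are shared by the groups in the labels. Gene by gene, libraries with one number did not deviate together (mean correlation 0.00373, range -0.0218 to 0.0282). A correlation across genes cannot show a shift common to all genes. Replicate 2 had the higher median-of-ratios factor in every group, with 0.976 and 0.996 in the depleted control and 1.01 and 1.04 with mutated CTCF. Whether the numbers pair the samples is therefore not settled. A fit with a block for the replicate number called 5920 genes (3797 higher, 2123 lower). With the block and median-of-ratios rescaling together it called 5380 (2705 higher, 2675 lower), against 5388 with the rescaling alone. The joint setting was chosen after seeing the data. The block alone ended no call of a named gene, and with the rescaling it ended 4, those of Arnt, Nfe2l2, Dvl1 and Rad21.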

Other observations

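Counts below stand against 22% higher and 12.4% lower among all tested genes. Gene groups outside the pathways described above also held large changes with mutated CTCF. Numbered zinc-finger protein genes, mostly C2H2 zinc-finger proteins, had 128 of 353 members higher and 20 lower (105 and 31 after median-of-ratios rescaling, 74 and 10 without the mean-variance trend, 85 and 11 under DESeq2), with a median log2 fold change of 0.13. The decreases numbered 12 without control replicate 2 and 13 without mutated CTCF replicate 1. Zfp786 went from 64.3 and 58.3 normalized reads in the depleted control to 133 and 123 (log2 fold change 1.05, SE 0.14, adjusted p = 1.7e-07) and Zfp467 from 21.4 and 23.1 to 3.13 and 2.97 (log2 fold change -2.52, SE 0.4, adjusted p = 3.0e-06). Axon guidance genes had 14 of 59 lower and 7 higher, but 12 and 11 after adjustment for GC content and gene length, which turned their median from -0.06 to 0.07. Sema3e, a secreted semaphorin, had 230 and 222 reads in the depleted control, 305 and 320 with wild-type CTCF and 87.8 and 82.1 with mutated CTCF (a log2 change of -1.40 with SE 0.11, adjusted p = 4.4e-13). Slit3, a secreted guidance cue, had 2205 and 2245 in the depleted control, 2681 and 2816 with wild-type CTCF and 3572 and 3627 with mutated CTCF, the highest of the 4 groups (log2 fold change 0.69, SE 0.042, adjusted p = 1.2e-16).

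Imprinted genes had 12 of 46 higher and 14 lower, with 8 lower without the mean-variance trend. Kcnq1, a potassium channel gene of an imprinted domain, had 228 and 233 normalized reads in the depleted control, 225 and 230 with wild-type CTCF, 220 and 234 without IAA and 373 and 407 with mutated CTCF (a log2 change of 0.76 with SE 0.097, adjusted p = 5.0e-08). Neat1, the RNA scaffold of paraspeckles, showed the same isolation of mutated CTCF, with 2176 and 2236 in the depleted control, 2118 and 2264 with wild-type CTCF, 2211 and 2187 without IAA and 3277 and 3326 with mutated CTCF (a log2 change of 0.58 with SE 0.043, adjusted p = 6.2e-14). Rgs22, a regulator of G protein signalling, had 242 and 273, 161 and 190, 403 and 423 and 543 and 563 in that order. Spliceosome genes had 23 of 46 higher and none lower, and proteasome genes 16 of 36 higher and none lower. After median-of-ratios rescaling these were 12 higher and 2 lower, and 8 higher and 1 lower, against 17.1% and 17% of all genes. Without the mean-variance trend 5 and 3 were called higher, no larger a share than the 1909 of 15818 over all genes. Leaving out any 1 of the 4 libraries also gave fewer increases. The list medians were 0.12 and 0.12, and 0.15 and 0.18 for wild-type CTCF against the depleted control. Of 17 interferon and antiviral genes 7 were higher and 1 lower. Cell adhesion and matrix genes were divided, with 9 of 47 integrin, collagen and laminin genes higher and 10 lower, among them Itga8 at 8.34 and 11 against 39.7 and 35.6 (log2 fold change 1.87, adjusted p = 2.6e-07) and Col9a2 at 189 and 186 against 60.6 and 71.2 (log2 fold change -1.50, adjusted p = 7.8e-11). Solute carriers had 53 of 245 higher and 39 lower, ion channels 12 of 71 and 17, cadherins and catenins 6 of 24 and 4, cyclic nucleotide and G protein genes 19 of 65 and 16, and chemosensory receptors 3 of 33 and 4. After median-of-ratios rescaling the balance turned for 3 of these lists. Solute carriers then had 41 higher and 58 lower, cadherins and catenins 5 and 6, and cyclic nucleotide and G protein genes 18 and 20. On that scale 17.1% of all genes were higher and 17% lower. Without the mean-variance trend 22 solute carriers and 9 cyclic nucleotide and G protein genes were higher, and under DESeq2 18 solute carriers, 7 ion channels and 9 cyclic nucleotide and G protein genes were lower. Leaving out control replicate 1 gave 30 solute carriers higher, leaving out control replicate 2 gave 11 ion channels lower, leaving out mutated CTCF replicate 1 gave 24 solute carriers and 6 matrix genes lower, and leaving out mutated CTCF replicate 2 gave 10 cyclic nucleotide and G protein genes higher. Of the chemosensory receptors 1 was higher and 1 lower under DESeq2, and 1 was higher without mutated CTCF replicate 2. Polymerase II and Mediator genes had 15 of 45 higher (8 without the trend or without control replicate 1, 9 without mutated CTCF replicate 2) and 4 lower. For tRNA synthetases 8 of 20 were higher (4 without the trend or after median-of-ratios rescaling, 5 without mutated CTCF replicate 2) and 1 lower. Immediate early genes had 5 of 23 higher (3 under DESeq2 or without mutated CTCF replicate 1 or 2) and 2 lower (0 without control replicate 2). Small nucleolar RNA hosts had 3 of 17 higher and 2 lower (6 lower after median-of-ratios rescaling, 5 at equal totals).

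Genes on chromosomes 6 and X leaned lower. Of 780 tested genes on chromosome 6, 169 (21.7%) were lower and 101 (12.9%) higher, and of 544 on X, 123 (22.6%) and 79 (14.5%). The median log2 fold changes were -0.04 and -0.03, against 0.06 over all genes. On chromosome 6 the median against the depleted control was -0.03 for wild-type CTCF as well, and on X it was 0.06. Stra8, Kcnd2 and Dppa3, which fell, and Rerg, which rose, lie on chromosome 6. The part of the chromosome in their changes was not tested.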
